A study of Mus musculus with 8 samples.

Results

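Leptin-deficient ob/ob mice were treated with leptin or saline, and their gallbladder RNA was measured for the chitinase-like and resistin-like genes Chil1, Chil3, Chil4, Chia1, Retnla, Retnlb and Retnlg. Members were taken as every probe set annotated to 1 symbol only, that symbol being 1 of these 7 after updating by Entrez identifier. This gave 6 probe sets for 6 genes, 1 each, among 18193 genes with a probe set of 1 symbol, and no probe set carried the symbol Retnlg. The family was picked with the leptin effect in these same arrays already known. The values of its members are therefore described, and limma calls on them are not read as tests.

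All 24 mice were female B6.V-Lep ob, obese because the ob mutation leaves every cell without functional leptin, and all ate standard chow. They arrived at 7 weeks of age and rested for 1 week. For the next 4 weeks, 12 mice were injected intraperitoneally each day with recombinant leptin at 5 µg for each gram they weighed, and 12 with saline. Gallbladders were removed at 12 weeks after an overnight fast, and 3 were pooled for each RNA sample, giving 4 leptin pools (numbered 5 to 8) and 4 saline pools (1 to 4). Each pool was read on 1 Affymetrix 430 2.0 array. Pools hide the spread between single mice, and the number of pools limits the precision of every value here.

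Chitinases cut chitin, a sugar polymer that mammals take in or inhale but do not make. Chia1, the acidic mammalian chitinase, keeps this activity, whereas the chitinase-like proteins keep the fold and have lost the cutting residue. Chil3 (Ym1) and Chil4 (Ym2) are secreted by mouse macrophages and by airway and other mucosal epithelia, and both are classic targets of interleukin 4 and interleukin 13. Chil1 (BRP-39) is made by macrophages, neutrophils and epithelia. Resistin-like molecules are small cysteine-rich secreted proteins named after the adipocyte hormone resistin. Retnla (RELM-alpha, FIZZ1) marks alternatively activated macrophages and is also made by epithelium and fat. Retnlb (RELM-beta) comes from goblet cells of the gut, and Retnlg (RELM-gamma) from marrow and neutrophils.

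Chil3 and Chil4 are recent duplicates, and their start regions show how alike they are. The 250 bases before the annotated start are printed below for the 3 genes whose signals stood far apart between treatments. They come from RefSeq (GRCm38.p6), run 5′ to 3′ on the gene's strand, and have motif matches in capitals. Chil3 lies on the minus strand (chr3:106167565-106167814), as does Chil4 (chr3:106219480-106219729), and Retnla on the plus strand (chr16:48842359-48842608).
Chil3: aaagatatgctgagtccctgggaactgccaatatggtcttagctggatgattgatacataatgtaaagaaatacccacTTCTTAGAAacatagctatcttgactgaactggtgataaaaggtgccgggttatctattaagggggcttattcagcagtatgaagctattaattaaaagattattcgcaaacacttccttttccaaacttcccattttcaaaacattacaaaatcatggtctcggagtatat
Chil4: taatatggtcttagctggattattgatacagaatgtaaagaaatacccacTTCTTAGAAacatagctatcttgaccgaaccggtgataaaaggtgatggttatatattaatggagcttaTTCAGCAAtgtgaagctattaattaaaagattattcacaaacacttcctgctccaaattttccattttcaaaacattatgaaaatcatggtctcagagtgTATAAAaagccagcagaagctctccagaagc
Retnla: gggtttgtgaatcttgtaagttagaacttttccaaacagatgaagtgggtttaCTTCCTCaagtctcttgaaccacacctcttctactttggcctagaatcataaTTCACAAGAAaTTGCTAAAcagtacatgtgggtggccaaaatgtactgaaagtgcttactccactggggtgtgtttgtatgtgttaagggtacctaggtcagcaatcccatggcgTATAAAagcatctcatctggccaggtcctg

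Of 221 aligned bases, 91.0% were identical between Chil3 and Chil4. Of 175 aligned bases, 78.9% were identical between Retnla and its neighbour Retnlg. The other 13 pairs among the 6 members in the promoter table lay between 54.3% and 64.3%. Both strands were searched for 6 motifs. The STAT letters TTCNNNGAA occurred in Chil3 and Chil4, at the same aligned place, and in 6.69% of 17492 promoters of the same length. The STAT6 letters, TTC and GAA with 4 bases between them, occurred in Retnla and Retnlg and in 5.39% of promoters. The C/EBP letters TTGCNNAA occurred in Chil4, Retnla and Retnlg and in 9.11% of promoters. In Chil3 the aligned stretch differed from the Chil4 match by A8G, counted from the 5′ end of the match as printed, with the Chil4 base given ahead of the Chil3 base. The PU.1 letters GAGGAAG occurred in Retnla and in 9.98% of promoters.

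The TATA box letters TATAAA occurred in Chil4, Retnla and Chia1 and in 12.4% of promoters. They began 31, 30 and 43 bases before the start. In Chil3 they began 3 bases before its annotated start and ran past the printed window. The NF-kB letters, GGGA and TTTCC with 1 base between them, matched no member and 0.337% of promoters. Chil1 held none of the 6 motifs in its window. No matches of different motifs overlapped in the members. A match is a run of letters and shows no binding.

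Chil3, Chil4 and Retnla were high in every leptin pool and low in every saline pool, while Chil1 overlapped between treatments and Chia1 and Retnlb lay near or under background. Signals are MAS 5.0 intensities on a linear scale, and background is a signal of 46, the 95th percentile of 27 control probe sets for bacterial sequences that were not added. Log2 differences are leptin minus saline with the standard error (SE) of the limma fit, n = 4 pools in each treatment, on the log2(signal + 8.2) scale, which understates the change of dim genes. Of the 6 member probe sets, 4 passed the filter on dim signals and 3 of these were called higher by limma at an adjusted p under 0.05. No member was called lower. Over all 22519 tested probe sets, 3.54% were called higher and 3.39% lower. The treatments did not overlap, with leptin higher, for these 3 members, for 8.12% of all tested probe sets and for 8.45% of tested genes. The members were chosen on this contrast, so nothing is read from these counts. In bulk tissue, more cells of a type and more RNA per cell cannot be told apart.

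**Figure D1:**
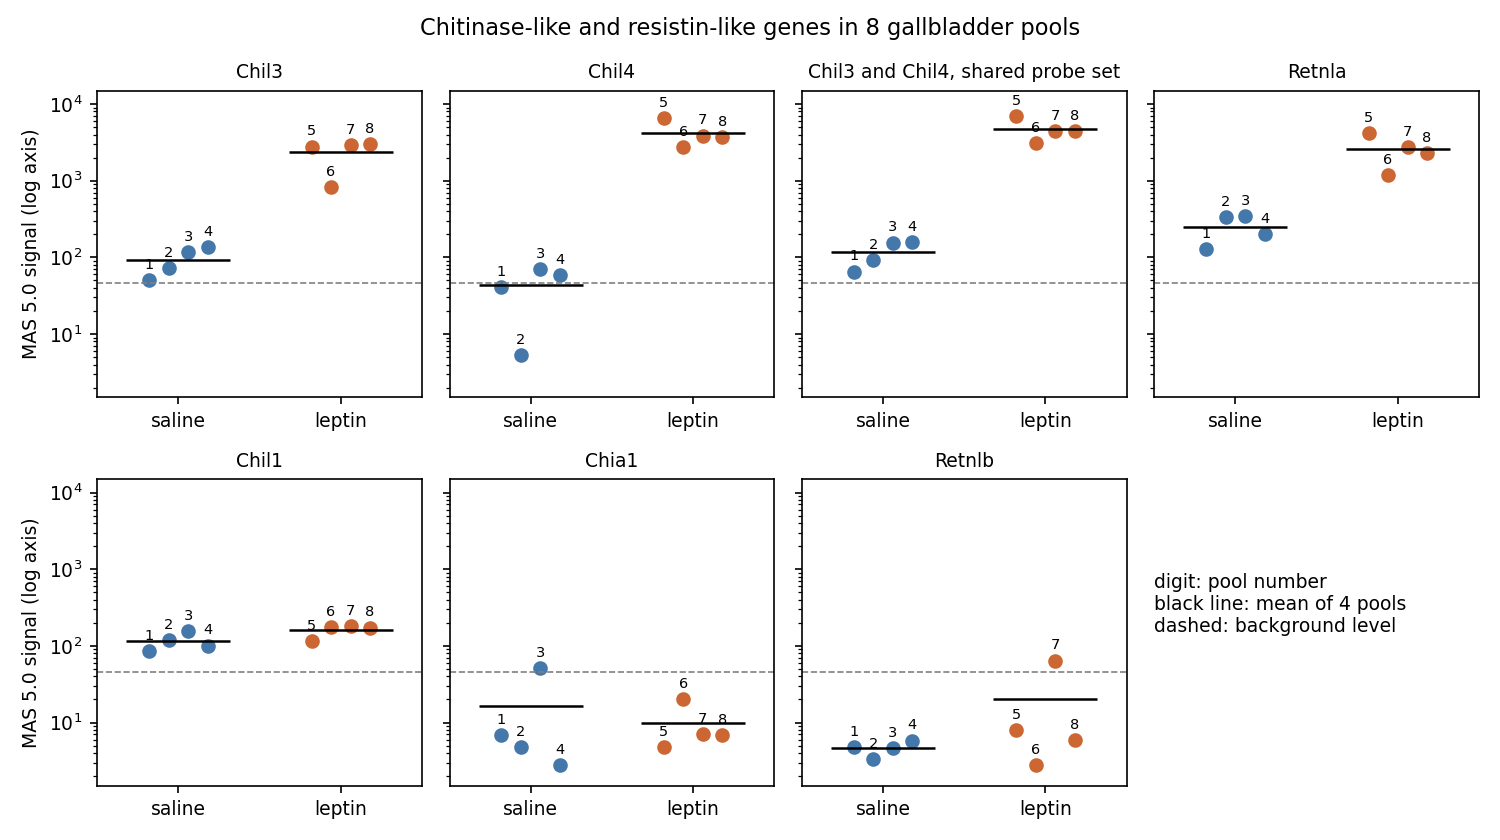
MAS 5.0 signal (log axis) of the 6 member probe sets and of the probe set shared by Chil3 and Chil4, with 1 point per pool, the pool number above it, the mean as a black line and the background level dashed. The lowest leptin pool lies above the highest saline pool for Chil3, Chil4, their shared probe set and Retnla, and treatments overlap for Chil1, Chia1 and Retnlb.

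Chil3 (probe set 1419764_at) had signals of 50.1, 71.6, 117 and 136 in saline pools 1 to 4. In leptin pools 5 to 8 it had 2777, 828, 2880 and 3023. All leptin pools were above all saline pools, and even the lowest of them, leptin 6, was 6.10 times the highest saline pool. The means were 93.5 ± 39.5 (SD, n = 4) and 2377 ± 1038 (SD, n = 4), and the log2 difference was 4.47 ± 0.39 (SE). Among 11719 tested genes, each read from its brightest probe set, this was the largest rise but for 7.

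Chil4 (1425450_at) was barely detected without leptin. Its signals in saline pools 1 to 4 were 41.1, 5.3, 69.5 and 58.6, so 2 pools lay under background. In leptin pools 5 to 8 they were 6604, 2726, 3874 and 3693, and the lowest was 39.2 times the highest saline pool. With the dim pools set at background, Chil4 was at least 73.9-fold higher with leptin. The fitted log2 difference was 6.54 ± 0.45 (SE) and rests in part on values under background. It was 5.98 without saline 2. The saline mean of 5.43 on the log2 scale lay under the filter of 6.52, so Chil4 was tested only because of its leptin pools.

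Since the paralogs share sequence, a probe set for one may also bind the other, and the split of signal between them is uncertain. A further probe set, 1425451_s_at, is annotated to both and is no member. It read 65.0, 91.6, 156 and 157 in saline pools and 7012, 3061, 4400 and 4429 in leptin pools. The order of the leptin pools 5, 7 and 8 differed between the probe sets. Leptin 8 was highest for Chil3, whereas leptin 5 was highest for Chil4 and for the shared probe set. Leptin 6 was lowest on all of them.

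Retnla (1449015_at) was well above background in both treatments. It read 129, 331, 345 and 203 in saline pools 1 to 4 and 4221, 1181, 2754 and 2271 in leptin pools 5 to 8. The treatments did not overlap, with the lowest leptin pool at 3.43 times the highest saline pool. The means were 252 ± 104 and 2607 ± 1261 (SD, n = 4), and the log2 difference was 3.29 ± 0.36 (SE), 9th among the tested genes.

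Chil1 (1451537_at) showed no such separation. It read 85.0, 119, 157 and 101 in saline pools 1 to 4 and 116, 177, 179 and 173 in leptin pools 5 to 8. Leptin 6, 7 and 8 were above all saline pools, and leptin 5 fell among them. The log2 difference was 0.47 ± 0.23 (SE), from means of 115 ± 30.8 and 161 ± 30.0 (SD, n = 4), and limma did not call it. Its rank among the tested genes was 1294.

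Chia1 (1416456_a_at) and Retnlb (1418368_at) failed the filter on dim signals and were not tested. Chia1 read 6.9, 4.8, 50.7 and 2.8 in saline pools 1 to 4 and 4.8, 20.2, 7.1 and 6.9 in leptin pools 5 to 8. Only saline 3 lay above background. Retnlb read 4.8, 3.3, 4.6 and 5.8 in saline pools and 7.9, 2.8, 64.1 and 5.9 in leptin pools. Only leptin 7 lay above background, and that array also had the highest median signal of the 8, at 107 against 77.8 to 98.6 in the others. No fold is given for either gene, and their log2 differences given further on rest mostly on values under background.

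Leptin 6 was the lowest leptin pool for Chil3, Chil4 and Retnla, at deviations of -1.35, -0.55 and -1.0 on the log2 scale from the leptin mean. Its Chil1 signal, 177, was close to those of leptin 7 and 8. Among the 503 genes called higher by limma, leptin 6 was the lowest leptin pool for 22.5%, against 31.2% for leptin 7. Without leptin 6 the log2 differences of Chil3, Chil4 and Retnla were 4.92, 6.73 and 3.62.

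Other markers in leptin 6 moved both ways. The summed signal of the macrophage markers was lowest in leptin 6 among leptin pools (14543 against 16242 to 18379). That of the neutrophil markers was not (13229 against 9049, 10853 and 14423). Much of that sum was Lcn2, which was at its highest in leptin 6 (7773). Alox15, a lipoxygenase of eosinophils and alternatively activated macrophages, named after its values were seen, read 7.5 in leptin 6 and 117, 249 and 127 in leptin 5, 7 and 8. The part of these markers in the low Chil3 and Retnla of leptin 6 was not tested. In saline, Chil3 and Retnla were both lowest in pool 1 (-0.71 and -0.83), and Chil4 in pool 2 (-1.68).

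**Figure D2:**
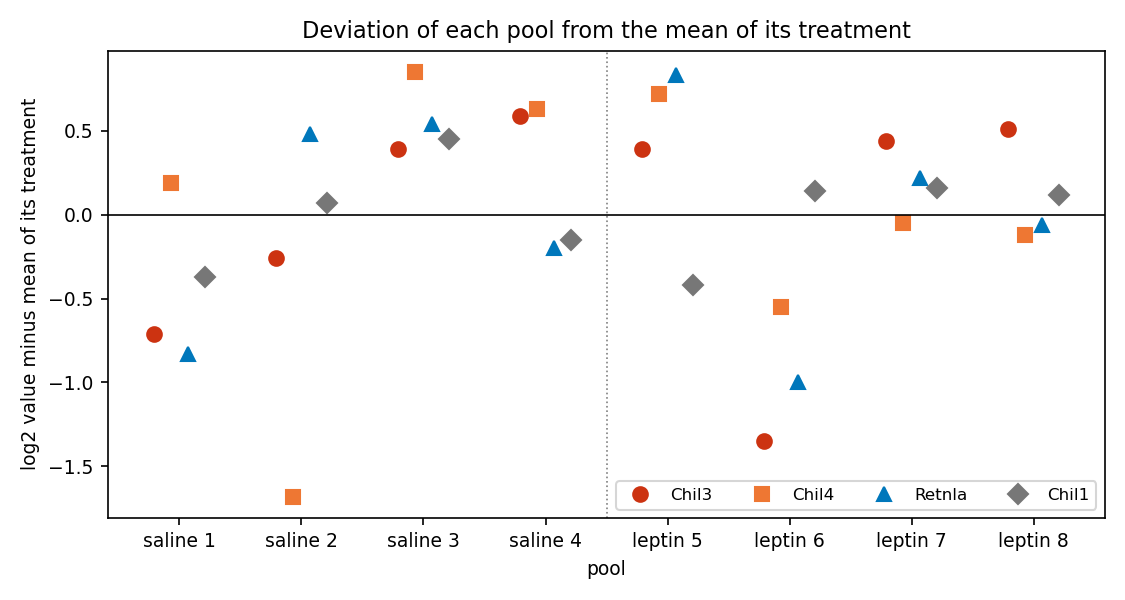
Deviation of each pool's log2(signal + 8.2) from the mean of its own treatment for the 4 tested members, by pool. Leptin 6 lies below 0 for Chil3, Chil4 and Retnla and at 0.14 for Chil1.

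Over all 8 pools, likeness of pattern was measured as the mean absolute difference between log2 values after each gene was centred on its mean. Among the members, Chil3 and Retnla were closest (0.64), then Chil3 and Chil4 (1.03), and Chil4 and Chil1 were farthest apart (3.04). Of 11718 other genes, those nearest to Retnla were the monocyte chemokine Ccl8 (0.49), the serum amyloid Saa3 (0.51) and the class II invariant chain Cd74 (0.55). Nearest to Chil4 were Jchain (0.59), which joins antibody units, the light chain segment Igkv8-30 and the neutrophil chemokine Cxcl5 (both 0.61). Retnla itself was nearest to Chil3, followed by Igkv8-30 (0.84) and Jchain (0.86). Nearest to Chil1 were Elp6 (0.06), Iba57 and Gm5481 (both 0.11). This measure is led by the size of the difference between treatments.

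The members sit in clusters of related genes. On chromosome 3, RefSeq orders the protein-coding genes Ovgp1, Pifo, Chil5, Chia1, Chil3, Chil4, Chil6, Dennd2d and Cept1. Of these, the tested neighbours Ovgp1 (log2 difference -0.02 ± 0.33, adjusted p = 0.974), Dennd2d (0.20 ± 0.20, 0.571) and Cept1 (0.08 ± 0.10, 0.681) were not called by limma. Pifo was too dim to test, with 63.8 ± 18.9 in leptin and 28.8 ± 19.3 in saline pools (SD, n = 4). Chil5 and Chil6 had no probe set of 1 symbol. On chromosome 16, Retnla lies between Retnlb and Retnlg, and no other gene of the window was tested, 1 for want of a probe set and the others for dim signals. On chromosome 1, Chil1 lies beside Chit1, which encodes chitotriosidase, the other active chitinase. Of the neighbours there, the matrix proteoglycan gene Fmod rose by 0.82 ± 0.17 (limma adjusted p = 0.013). The growth-arrest gene Btg2 was at -0.10 ± 0.13 (adjusted p = 0.701).

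**Figure D3:**
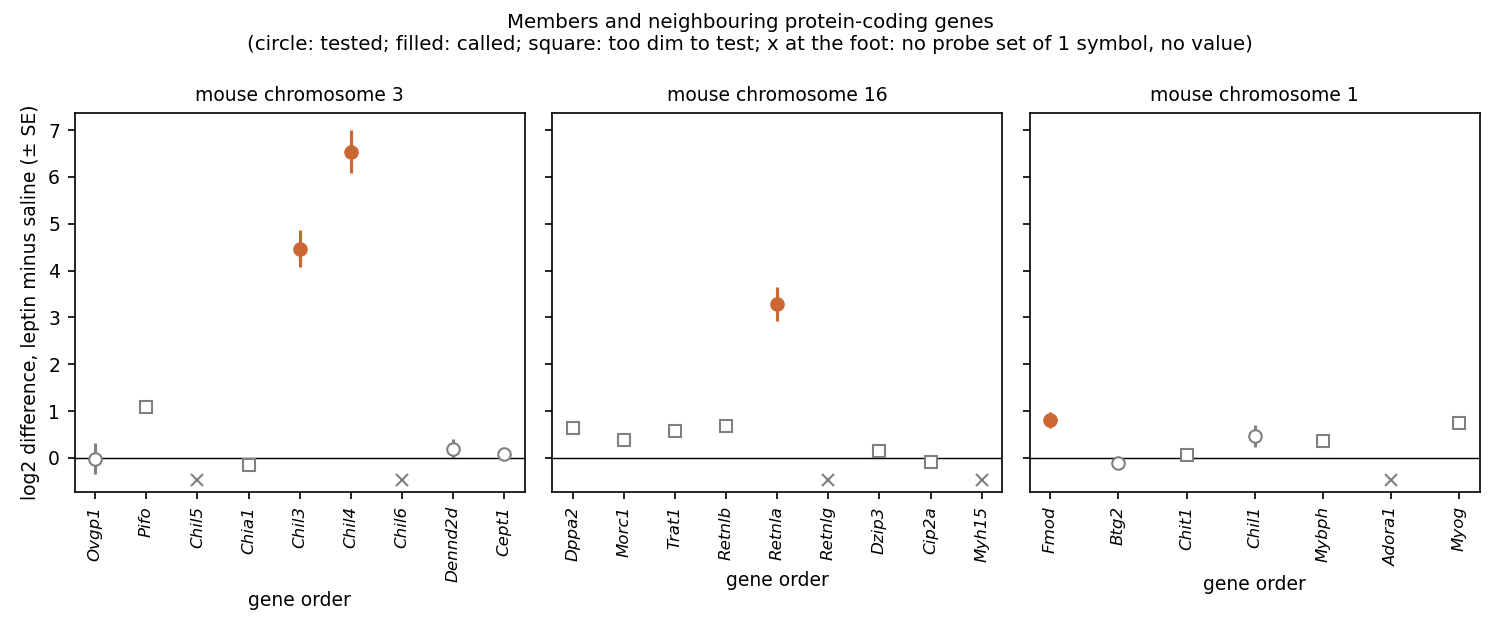
Log2 difference between leptin and saline (± SE where tested) for the members and the protein-coding genes on either side, in chromosome order. In the chromosome 3 window, Chil3 at 4.47 and Chil4 at 6.54 lie between measured genes at -0.14 to 1.09. The genes at these limits, Chia1 and Pifo, were too dim to test.

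No gene in the rest of the chitinase and resistin family was called. Of 7 further genes, 5 had a probe set of 1 symbol, 4 were tested and limma called 0, with 0 at an unadjusted p under 0.05. Over all 11719 tested genes, 8.27% were called in either direction. Retn, which encodes resistin, read 653, 423, 561 and 212 in saline pools and 398, 220, 409 and 261 in leptin pools. These overlap, with a log2 difference of -0.44 ± 0.30 (adjusted p = 0.409). Chid1 and Ctbs, relatives in lysosomes, were at 0.04 ± 0.17 and 0.00 ± 0.17 (adjusted p = 0.913 and 0.99). Chit1 was under background in 2 saline and 3 leptin pools.

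The cytokines that drive Chil3, Chil4 and Retnla elsewhere were at the limit of detection. Of 20 genes of type 2 cytokine signalling, 18 had a probe set of 1 symbol, 9 were tested and limma called 0, with 3 at an unadjusted p under 0.05. The median log2 difference was 0.21, against 0.02 over all tested genes. Of all tested genes, 8.27% were called in either direction, so 0 of 9 is not read as a result about the pathway. The cytokine genes Il5, Il13 and Il25 were under background in all 8 pools, as was the type 2 transcription factor Gata3. Il4 was above it in leptin 7 alone (127, against 7.3 to 39.5 in the other pools). Il9 exceeded it in saline 3 and leptin 8 (54.2 and 78.7), and Tslp in leptin 6 and 7 (53.9 and 65.4). Such probe sets show only that transcripts were not well above background in whole gallbladder.

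Receptors and signalling genes of that pathway were measurable in part, and their values are given here. The receptor chains Il2rg and Il1rl1 had no probe set of 1 symbol. Il33, an epithelial alarm cytokine, was at 0.20 ± 0.25 (limma adjusted p = 0.682). The shared receptor chain Il4ra was at 0.35 ± 0.16 (0.194), Il13ra1 at 0.03 ± 0.13 (0.907) and the signal transducer Stat6 at 0.21 ± 0.14 (0.387). The kinases Tyk2, Jak3 and Jak1 were at 0.41 ± 0.13 (0.0759), 0.56 ± 0.26 (0.207) and -0.08 ± 0.15 (0.782). Tyk2 did not overlap between treatments (236 to 252 in saline and 312 to 350 in leptin pools). The receptor chains Crlf2 and Il17rb were at 0.33 ± 0.22 (0.379) and 0.21 ± 0.24 (0.637). The decoy receptor Il13ra2 and the interleukin 5 receptor Il5ra were too dim to test. They read 5.9 to 114 and 11.8 to 63.1 over the pools.

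Among genes listed as proposed binding partners of these proteins, and factors of myeloid and interleukin 4 responses, limma called 1 each. With 8.27% of all tested genes called in either direction, neither count is read as a result about its list. Of 7 partners 4 were tested and 1 rose, the kinase gene Syk (1.30 ± 0.26, limma adjusted p = 0.0108), while 4.29% of all tested genes were called higher. That call was lost with the actin ratio described below as a covariate (0.122). Only 1 of the 4 Syk probe sets was tested, and with the median over a gene's probe sets 0 partners were called. Tlr4 and the Chil1 partner Tmem219 were at 0.28 ± 0.15 (0.295) and 0.17 ± 0.18 (0.615). Of 13 tested transcription factors 1 fell, Cebpd (-0.89 ± 0.17, adjusted p = 0.00971), and over all tested genes 3.98% were called lower. Of its 2 probe sets 1 was called, and with their median Cebpd was at -0.63 (adjusted p = 0.125). Klf4 and Pparg were at -0.61 ± 0.18 (0.0578) and -0.58 ± 0.17 (0.0593). Called factors numbered 3 without saline 3 and 2 without saline 4, leptin 5 or leptin 7.

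Genes that mark alternative activation of macrophages along with Retnla and Chil3 rose in part. Of 13 tested, 6 rose and 0 fell by limma, with a median log2 difference of 0.71. Over all tested genes, 4.29% were called higher. The fungal sugar receptor Clec7a rose by 1.25 ± 0.19 (adjusted p = 0.00231), the mannose receptor Mrc1 by 1.05 ± 0.16 (0.00215), the lectin Mgl2 by 0.98 ± 0.21 (0.0145) and the cytokine signal inhibitor Socs2 by 0.86 ± 0.20 (0.0222). Socs2 lost its call in 8 of 16 alternatives, among them leaving out saline 1, saline 2, leptin 5 or leptin 6 (adjusted p = 0.0521, 0.0563, 0.0655 and 0.0706). Mgl2 lost its call in 3 of 16, among them leaving out leptin 8 (0.0529). Clec10a and the chemokine Ccl17 were at 1.13 ± 0.44 (0.141) and 0.56 ± 0.22 (0.151). The Clec10a saline mean of 6.09 on the log2 scale lay under the filter of 6.52, so Clec10a was tested only because of its leptin pools. Arginase 1 (Arg1), named after its values were seen, was at 0.07 ± 0.19 (0.859), with 4979 to 9153 in saline and 5696 to 9160 in leptin pools. Liver also expresses it, and all 7 measured hepatocyte markers were above background in every pool. The part of liver RNA in the Arg1 signal was not tested. The count was 3 without leptin 5, 2 after quantile normalization and 0 with the actin covariate.

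Epithelial genes that interleukin 13 induces elsewhere also rose in part. Of 7 tested genes 5 rose and 0 fell, with a median of 0.79. By comparison, 4.29% of all tested genes were called higher. The trefoil factor Tff2, which protects mucosa, read 456, 234, 270 and 439 in saline pools and 1422, 1264, 1332 and 1407 in leptin pools. It rose by 1.99 ± 0.19 (limma adjusted p = 6.04e-05). The tuft cell kinase Dclk1 rose by 1.23 ± 0.23 (0.00787), the goblet cell factor Foxa3 by 0.81 ± 0.22 (0.0453) and Tff3 by 0.79 ± 0.15 (0.00929). Of the 2 tested probe sets of Dclk1, 1 was called. Foxa3 lost its call when any single pool other than saline 3 was left out, with an adjusted p of up to 0.111. With the actin covariate only Tff2 of these was called. Postn and the eosinophil chemokine Ccl11 were at 0.23 ± 0.14 (0.336) and 0.19 ± 0.16 (0.529). The other 10 genes of the list were too dim to test, and those named next were chosen after their values were seen. The mucin Muc5ac and the lectin Itln1 were under background in all 8 pools. Agr2, which helps to fold mucins, was under background in all saline pools (12.8 to 31.0) and read 124, 116, 151 and 78.3 in leptin pools 5 to 8, at least 2.48-fold higher.

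**Figure D4:**
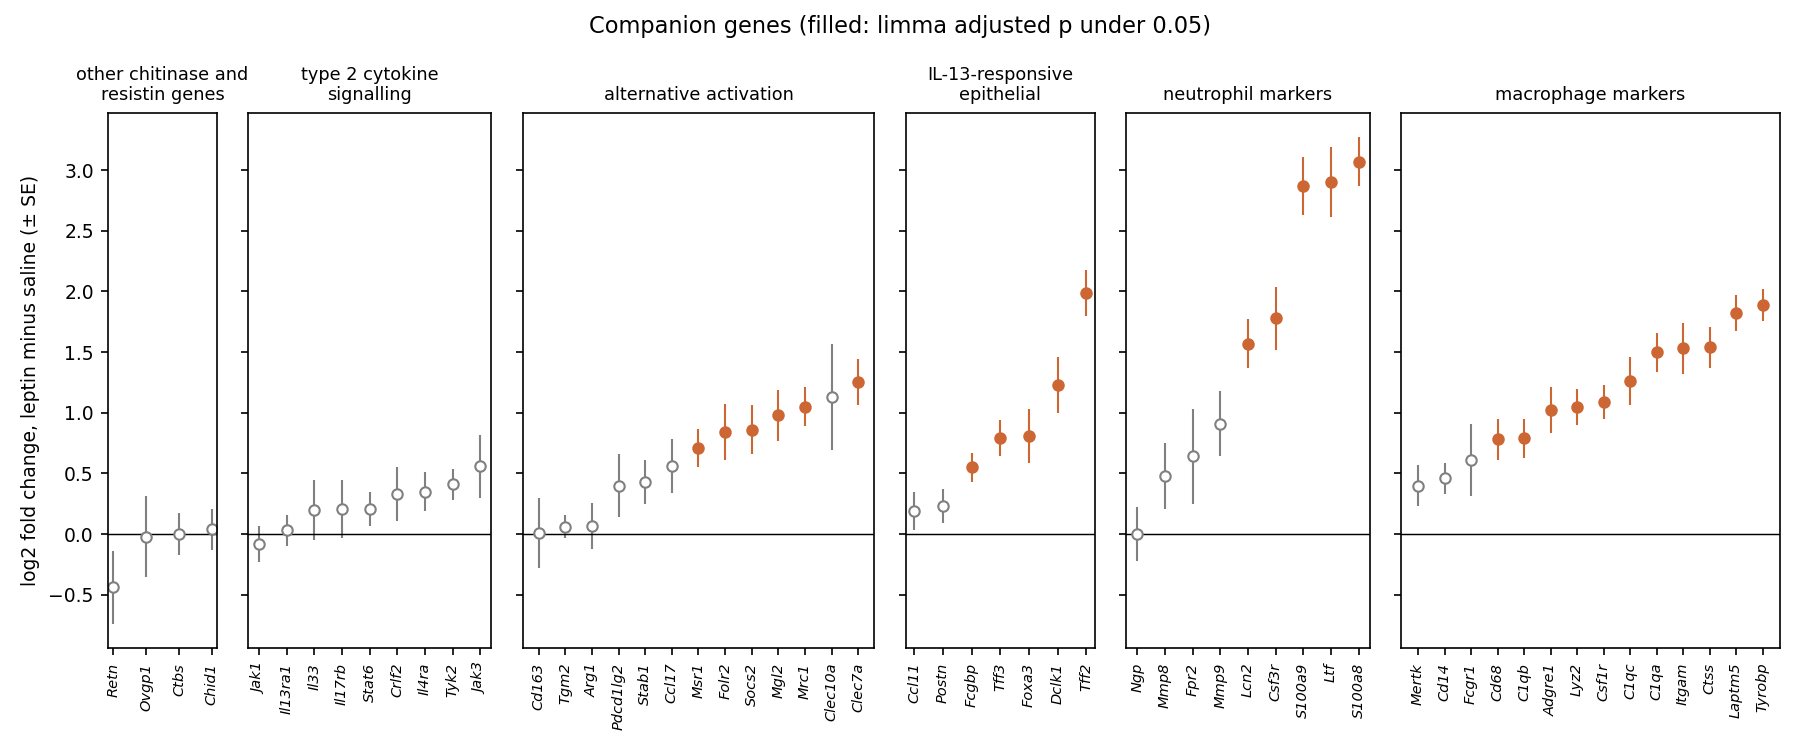
Log2 fold change, leptin minus saline (± SE, 4 pools in each treatment), of the tested genes of 6 companion lists, with called genes filled. No gene of the other chitinase and resistin genes or of type 2 cytokine signalling is filled, against 6 of 13 alternative activation genes, 5 of 7 epithelial genes, 5 of 9 neutrophil markers and 11 of 14 macrophage markers. Over all tested genes, 4.29% were called higher and 3.98% lower.

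Most tested markers of macrophages, those of B and plasma cells and some of neutrophils were higher with leptin as well. Markers of gallbladder epithelium and fat, given further on, were not. Of 14 tested macrophage markers, 11 rose (median 1.07), where 4.29% of all tested genes were called higher. The summed signal of the measured macrophage markers was 7071 to 8272 in saline and 14543 to 18379 in leptin pools. Read from their brightest probe sets, Tyrobp, Laptm5, Ctss and Itgam had the largest values (1.89 ± 0.13, 1.82 ± 0.15, 1.54 ± 0.17 and 1.53 ± 0.21, limma adjusted p up to 0.000873). The Itgam saline mean of 6.13 on the log2 scale lay under the filter of 6.52, so Itgam was tested only because of its leptin pools. Laptm5 was at 0.81 with the median over its probe sets (adjusted p = 0.0167), and 2 of its 3 tested probe sets were called. Cd14 and Mertk were at 0.46 ± 0.13 (0.0566) and 0.40 ± 0.17 (0.184). With the actin covariate 7 of the 14 were called.

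Of 9 tested neutrophil markers 5 rose (median 1.57), where 4.29% of all tested genes were called higher. The summed signal of the measured neutrophil markers was 2627 to 4594 in saline and 9049 to 14423 in leptin pools. Of this, Lcn2 alone read 1590 to 2934 in saline and 4644 to 7773 in leptin pools. S100a8 read 107 to 164 in saline and 869 to 1699 in leptin pools (3.07 ± 0.20, limma adjusted p = 1.89e-06). Ltf, S100a9 and Csf3r were at 2.90 ± 0.29, 2.87 ± 0.24 and 1.78 ± 0.26 (up to 0.00145), and with the actin covariate Csf3r was at 1.44 (0.0586) and 4 of the 9 markers were called. Mmp9 and Mmp8 were at 0.91 ± 0.27 (0.0587) and 0.48 ± 0.27 (0.314). Their saline means of 6.41 and 6.34 on the log2 scale lay under the filter of 6.52, so both were tested only because of their leptin pools. Ngp, named after its values were seen, was above background in all 8 pools and at 0.00 ± 0.22 (limma adjusted p = 0.999). The neutrophil genes Camp and Cxcr2 were under background in all 8 pools. Mpo, Elane, Prtn3, Cd177 and Trem1 were also too dim to test. Gallbladder epithelium also makes some of these genes, such as Lcn2.

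No eosinophil marker was bright enough to test. The summed signal of the 4 on the array was 50.7 to 88.9 in saline and 127 to 269 in leptin pools, and the granule genes Epx and Prg2 were under background in all of them. Siglecf, a surface lectin of eosinophils that tuft cells also express, was under background in all saline pools and read 128, 100, 141 and 164 in leptin pools 5 to 8. That is at least 2.85-fold higher, named after its values were seen. All 3 tested B and plasma cell markers rose (median 1.47), where 4.29% of all tested genes were called higher. The sums of those measured were 288 to 356 in saline and 2966 to 6608 in leptin pools. In the leptin pools Jchain alone read 2045 to 5625. The Jchain saline mean of 6.07 on the log2 scale lay under the filter of 6.52. This gene was tested only because of its leptin pools. The part of these cell types in the levels of Chil3, Chil4 and Retnla, and that of RNA quality below, was not tested.

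The tissue and the arrays were checked against the same treatments. All 9 measured gallbladder epithelium markers were above background in every pool. So were all 7 measured hepatocyte markers, and Alb alone read 14896 to 21696 in saline and 18355 to 19377 in leptin pools. The share of liver RNA in the pools was not measured. Of the 9 epithelium markers, 3 keratins fell. The sums of the 9 were 31394 to 38840 in saline and 24402 to 27453 in leptin pools. Of 7 hepatocyte markers 1 rose (58942 to 93936 and 75628 to 86827), and of 4 adipocyte markers 1 fell (3246 to 11256 and 3062 to 5174). By comparison, 4.29% of all tested genes were called higher and 3.98% lower. Counts of 0 or 1 in lists this short are therefore not read as results. Limma called 0 of 5 smooth muscle, 0 of 4 stomach and 0 of 2 pancreas markers, with 2, 1 and 0 at an unadjusted p under 0.05. Their sums were 29381 to 39429 and 29527 to 36903, 1476 to 2043 and 1458 to 1750, and 2013 to 3743 and 2088 to 2964. The smooth muscle gene Acta2 was not called on its brightest probe set, but 1 of its 2 tested probe sets was called. The median signal was 98.9 ± 5.74 with leptin and 81.8 ± 4.18 with saline (SD, n = 4, two-sided exact permutation p = 0.0286, adjusted 0.0571 over 4 measures). The share of probe sets above background was 69.4% ± 1.10 and 64.9% ± 1.49 (exact permutation p = 0.0286, adjusted 0.0571), and 0.0286 is the smallest p this test can give. As a measure of RNA quality, the signal of the 3' over the 5' actin control was 1.89 ± 0.207 and 1.60 ± 0.0882 (exact permutation p = 0.0571). That of GAPDH was 0.818 ± 0.0248 and 0.813 ± 0.0409 (exact permutation p = 0.857). With the actin ratio as a covariate the log2 differences of Chil3, Chil4 and Retnla were 4.23, 6.23 and 2.51.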

How the data were processed

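The authors deposited linear MAS 5.0 intensities for each of 8 arrays, with MAS5 named per the submitters' processing notes. Without scan dates or detection calls, no batch was examined. Arrays were rescaled to their common 2% trimmed mean of 250. Values were taken to log2(signal + 8.2), the 10th percentile of all values. The 64 control probe sets and those under the median brightness were left out, and 22519 of 45101 were tested with limma 3.58.1 in R 4.3.3 (lmFit, eBayes with trend, Benjamini-Hochberg over all tested, threshold 0.05). The code was tested on simulated data with the spread of each probe set and 200 probe sets changed. Of these, 0% were called at 1.5-fold, 50% at 2-fold and 92.5% at 4-fold, so a gene not called may still have changed.

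Symbols came from the array's annotation (34958 probe sets with 1 symbol, 932 with several, 9211 with none), 34754 matched by Entrez identifier to GRCm38.p6. A gene was read from its brightest probe set. Promoters matched 6 of 7 members and were aligned with Biopython 1.88.

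The members and 16 companion lists were chosen with earlier results of these data known. Named were all members, all measured genes of the family and type 2 lists, up to 4 called genes and 2 others with the lowest p of each other list discussed, and the 3 genes nearest to each tested member. Alternatives covered scaling, pseudocount, filter, variance model, the actin ratio, probe sets per gene and leaving out each pool.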

Additional observations from a re-analysis of the deposited data

Results flagged for a closer look

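Of 164 groups of 4 pools checked, 4 held a pool whose gap to the nearest other was large against the range of its group, and chance alone gives about 5% of groups. The leptin 6 pool had a Chil3 signal of 828, against 2777 to 3023 in the other leptin pools. The leptin 5 pool had a Chil1 signal of 116, against 173 to 179 in the others. The saline 4 pool had a signal of 13.9 for Clec10a, a lectin of alternatively activated macrophages, and of 604 for the protease gene Ctss.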

How the results depend on the processing

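No paired analysis was possible because saline pools are numbered 1 to 4 and leptin pools 5 to 8, with no number shared. Under all 17 alternatives Chil3, Chil4 and Retnla stayed higher with leptin, at log2 differences of 4.16 to 4.92, 5.84 to 6.95 and 2.51 to 3.62. The count of called member probe sets was 3 under each alternative run for it. The members were chosen on this contrast, so nothing is read from that count. Chil1 ranged from 0.22 to 0.62. Chia1 ranged from -0.40 to 0.40, turning positive without saline 3, and Retnlb from 0.08 (without leptin 7) to 1.59. The 1561 called probe sets became 3992 with median centring, 595 with the actin covariate and 878 to 1436 when a pool was left out (878 without saline 2, 929 without saline 4, 892 without leptin 6 and 994 without leptin 8). Median centring moved the median log2 difference from 0.04 to -0.21 and the share of calls that were higher from 51.1% to 10.2%; the share was 36.1% among probe sets above the 75th percentile, 64.0% without the trend and 40.7% with the actin covariate. Called genes of the alternative activation list numbered 2 after quantile normalization and 2 with the 75th-percentile filter, 3 with median centring, 0 with the actin covariate and 3 to 5 without a pool. Those of the epithelial list numbered 3 with median centring and above the 75th percentile, 1 with the actin covariate and 4 to 5 without a pool. Transcription factors numbered 3 with quantile normalization and above the 75th percentile, 4 with median centring, 0 with the median over a gene's probe sets and 1 to 3 without a pool. Binding partners numbered 0 above the 75th percentile, with the actin covariate and with the median over probe sets. Macrophage markers numbered 7 with the actin covariate and 10 to 12 without a pool, and neutrophil markers 4 with the actin covariate and the 75th-percentile filter and 5 to 6 without a pool. The cause of these shifts was not tested. The number of arrays and the closeness of dim signals to background limit the results on cytokine genes, Chia1 and Retnlb.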
